A study of Mus musculus with 8 samples.

Results

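The 83 genes described here encode the protein components of the mouse cytosolic ribosome. They were picked by symbol from the 22744 genes of the expression table: symbols that begin with Rpl or Rps and continue with a number, which may end in a, l, x or l1, or with p0, p1, p2 or a. Pseudogene symbols were left out. The symbol rule itself uses no measured value, but the set was chosen with earlier results of these data known. Of the 83 genes, 51 encode proteins of the large subunit and 32 encode proteins of the small subunit. The set takes in 6 paralogues and retrocopies, namely Rpl3l, Rpl7l1, Rpl10l, Rpl22l1, Rpl39l and Rps27l. Ribosomal proteins with other forms of symbol are left out, among them Fau, Gnb2l1, Rpl36al and Rps4y2, which are described after the set. The genes lie on 19 chromosomes, with 4 of them on the X.

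Ribosomes hold these proteins in fixed proportions beside the ribosomal RNAs, so cells make them in matched amounts. Their messenger RNAs begin with a run of pyrimidines, the 5′ terminal oligopyrimidine or TOP tract, through which mTOR and the RNA-binding protein LARP1 set their translation. In male germ cells the X chromosome is silenced during meiosis, and autosomal retrocopies of X-linked ribosomal protein genes, such as Rpl10l for Rpl10 and Rpl39l for Rpl39, are known for their expression in the testis.

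The gene Dmrtb1 encodes DMRT6, a transcription factor of the DMRT family that acts in male germ cells as spermatogonia pass into meiosis. RNA came from whole testes of C57BL/6 mice at postnatal day 8. There were 3 libraries from mice null for Dmrt6 and 3 from wild-type mice; the design text calls them biological replicates, and the labels do not give the allele of the null or say whether a library is 1 animal. Chromatin immunoprecipitation used rabbit antibodies raised against the C-terminal end of DMRT6 and gave 1 ChIP library, set against 1 input library. Both came from testes of adult wild-type mice on a C57BL/6 mixed background, so the binding data and the RNA come from different ages.

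The expression value is log2 CPM, the log2 of reads scaled to library size, as the authors deposited it. Whole reads recovered from its steps came to 26.2, 27.4 and 26.3 M in null libraries 1, 2 and 3, and to 23.8, 29.0 and 27.5 M in wild-type libraries 1, 2 and 3. Dmrtb1 itself had 14, 25 and 26 reads in the null libraries against 194, 510 and 254 in the wild-type libraries, a difference of −3.78 log2 units (SE 0.36) with an adjusted p of 0.0516 in limma, so the labels fit the transcript in every library. Null library 3 stood apart from the rest: on the first principal component of all tested genes, which held 44.8% of the variance, it scored −54.3, against −1.68 and 15.9 for null libraries 1 and 2 and 17.1, 2.83 and 20.2 for the wild-type libraries. Marker genes of the cells a whole testis holds were present in all libraries, and in null library 3 the summed level of 9 Sertoli cell markers was 1701 CPM, against 886 to 1293 in the other null libraries and 1037 to 1134 in the wild-type libraries.

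Ribosomal protein transcripts took 2.17%, 2.67% and 1.79% of the reads in null libraries 1, 2 and 3, and 2.59%, 2.28% and 2.54% in wild-type libraries 1, 2 and 3. The mean share was 2.21% ± 0.446 in null and 2.47% ± 0.166 in wild-type testes (SD, n = 3 each), 0.266 percentage points less in the null. The null libraries held both the highest and the lowest share of the 6, with every wild-type value between them. The order of the libraries was the same in both subunits. Genes of the large subunit took 1.28%, 1.58% and 1.06% in the null and 1.53%, 1.35% and 1.50% in the wild type, and those of the small subunit took 0.884%, 1.09% and 0.724% in the null and 1.07%, 0.936% and 1.05% in the wild type. In whole testis, fewer cells of a type and less RNA per cell cannot be told apart.

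**Figure D1:**
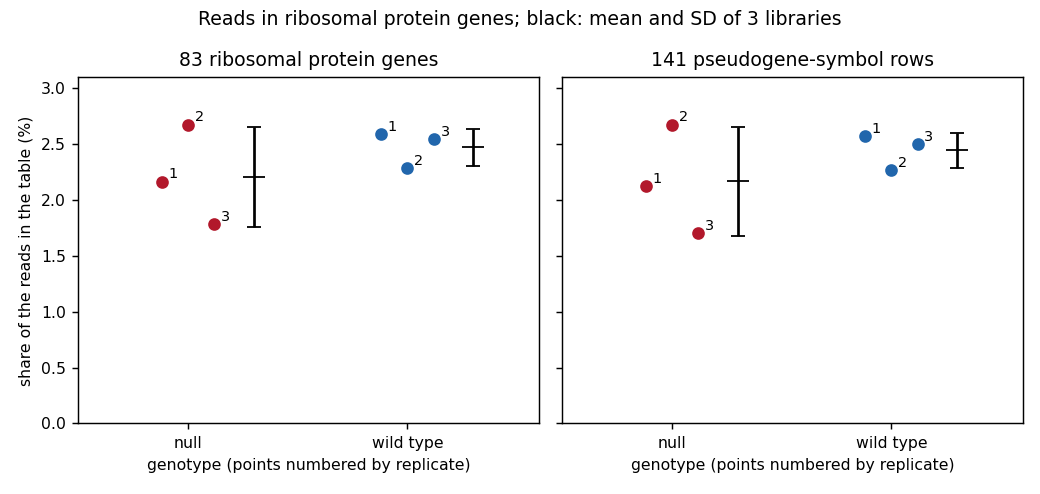
Share of the reads in the table (%, vertical axis from 0) in the 83 ribosomal protein genes (left) and in 141 rows with ribosomal protein pseudogene symbols (right), for null (red) and wild-type (blue) libraries numbered by replicate; black marks are the mean and SD of 3 libraries. In both panels null library 2 is highest and null library 3 lowest, and the 3 wild-type libraries lie between them.

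Seen gene by gene, the ribosomal protein genes varied together from library to library. After each gene's mean over the 6 libraries was taken away, the median gene stood at −0.11, 0.20 and −0.36 log2 units in null libraries 1, 2 and 3, and at 0.16, −0.03 and 0.14 in wild-type libraries 1, 2 and 3. Null library 3 was the lowest of the 6 for 79 of the 83 genes (95.2%), against 34.0% of all tested genes. Null library 2 was the highest for 47 (56.6%), against 17.0% of all tested genes, and both held for 45 (54.2%), against 8.81%. A single principal component held 91.6% of the variance of the 83 genes over the 6 libraries, with null libraries at −1.03, 1.86 and −3.32 and wild-type libraries at 1.47, −0.25 and 1.27. The median gene was 0.56 log2 units higher in null library 2 than in null library 3, a ratio of 1.47.

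**Figure D2:**
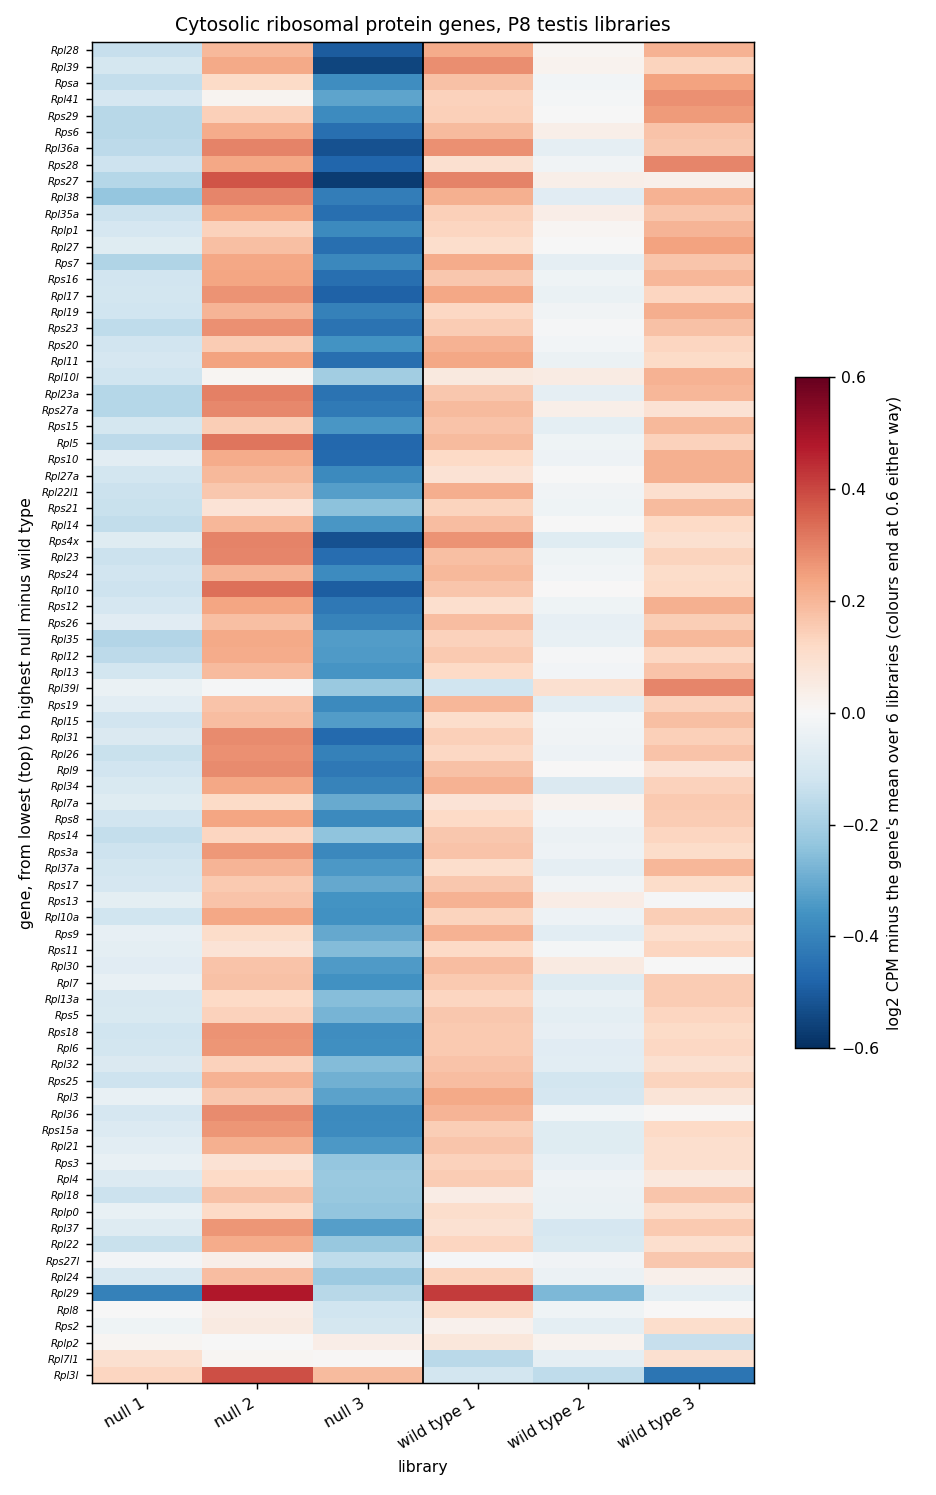
log2 CPM of 82 of the 83 genes (rows, ordered by null minus wild type, lowest at the top) minus that gene's mean over the 6 libraries (columns, null left of the black line, wild type right); the colours end at 0.6 log2 units either way. Nearly every row is blue in null library 3 and, more faintly, in null library 1, and red in null library 2 and in wild-type libraries 1 and 3; Rpl29, Rplp2, Rpl7l1 and Rpl3l at the bottom do not follow this.

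The spread within the null group was wider than within the wild-type group. The range over the null libraries exceeded the range over the wild-type libraries for 78 of the 83 genes (94.0%), against 72.3% of all tested genes. The median range of a ribosomal protein gene was 0.56 log2 units among the null libraries and 0.22 among the wild-type libraries. The widest null range belonged to Rps27, a small subunit protein, at 0.95 log2 units, and the narrowest to Rplp2, a protein of the stalk, at 0.04.

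All 83 genes passed the filter of a mean of at least 0 log2 CPM, which 16634 genes passed in all, so every one was tested. Means were lower in the null libraries for 80 of the 83 genes (96.4%), against 48.3% of all tested genes, and higher for Rpl3l, Rpl7l1 and Rplp2, the last of which was lower with library medians set equal. The median difference, null minus wild type, was −0.18 log2 units, with quartiles of −0.21 and −0.15, against a median of 0.01 over all tested genes. The 83 values share the same 6 libraries and are not independent of each other. No ribosomal protein gene passed the threshold of an adjusted p of 0.05 in limma, where 0.00601% of all tested genes passed, a single gene, Gm5859, named here after its values were seen. None had an unadjusted p under 0.05, where 3.47% of all tested genes did. With voom on the recovered reads, none passed either threshold. The smallest p of the set was 0.0535, with an adjusted p of 0.755, for Rpl41.

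The size of this difference depended on null libraries 2 and 3. Without null library 3 the median difference was −0.04 log2 units, with 70 of the 83 genes lower in the null. Without null library 2 it was −0.33, and 57 genes had an unadjusted p under 0.05 where 15.3% of all tested genes did; still none passed the adjusted threshold in limma. Array weights, set by how closely each library followed the limma fit of these values, ran from 2.90 for null library 1 to 0.22 for null library 3. They use no separate measure of library quality. With these weights the median was −0.13, with 4 genes at an unadjusted p under 0.05 where 8.22% of all tested genes were. Leaving out any other single library gave medians between −0.24 and −0.15. Nor did the groups separate: 1 gene had all null libraries below all wild-type libraries, where 6.02% of all tested genes did, and 1 gene had all of them above, where 5.06% did. Null libraries 1 and 3 were each below every wild-type library for most of the set, 68 genes for null library 1 (81.9%, against 27.2% of all tested genes) and 79 for null library 3 (95.2%, against 38.9%).

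Among large subunit genes, Rpl28 had the largest negative difference. It stood at 7.27, 7.60 and 6.91 log2 CPM in the null libraries and at 7.63, 7.42 and 7.62 in the wild-type libraries, a difference of −0.30 (SE 0.17). Null libraries 1 and 3 were below all wild-type libraries, and null library 2 lay among them. Rpl41, which encodes a very short and basic peptide of the large subunit, had 7.90, 8.02 and 7.68 log2 CPM in the null libraries against 8.14, 7.99 and 8.27 in the wild-type libraries, a difference of −0.27 (SE 0.12). Its groups overlapped by 1 library of each, null library 2 and wild-type library 2.

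The small subunit showed the same arrangement, with null library 3 the lowest library for all 32 of its genes. Rpsa, which also serves as a laminin receptor, had 9.31, 9.57 and 9.08 log2 CPM in the null libraries and 9.63, 9.44 and 9.70 in the wild-type libraries, a difference of −0.27 (SE 0.14). Rps29, a zinc-binding protein near the decoding site, had 7.14, 7.45 and 6.93 in the null and 7.45, 7.31 and 7.56 in the wild type, a difference of −0.27 (SE 0.14). In both genes null libraries 1 and 3 were below every wild-type library and null library 2 was within the wild-type range. Rps6, the ribosomal protein that S6 kinase phosphorylates, had 9.13, 9.52 and 8.84 log2 CPM in the null libraries and 9.49, 9.33 and 9.47 in the wild-type libraries, a difference of −0.27 (SE 0.16), so its highest and lowest libraries were both null. Rps6 is the one gene of the set in the stretch of chromosome 4 from 85 to 110 Mb, around Dmrtb1. It lies at chr4:86500564-86503316 on the minus strand of mm9. The median difference over the whole set was −0.18 log2 units, and an effect of this place on Rps6 was not tested.

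The 3 proteins of the P stalk, which recruits elongation factors to the large subunit, did not share a profile. Rplp0, its base, had 9.83, 10.0 and 9.64 log2 CPM in the null libraries and 9.98, 9.84 and 9.98 in the wild-type libraries, a difference of −0.11 (SE 0.11). Rplp1 had 8.18, 8.42 and 7.90 in the null and 8.41, 8.30 and 8.49 in the wild type, a difference of −0.23 (SE 0.14). Both followed the set, with null library 3 lowest. Rplp2 had 5.83, 5.82 and 5.86 in the null libraries and 5.89, 5.84 and 5.68 in the wild-type libraries, a difference of 0.03 (SE 0.10), and wild-type library 3 was its lowest; with library medians set equal its difference was −0.01. Its pseudogene row Rplp2-ps1, which held 273% to 293% as many reads as Rplp2, had the same flat profile.

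In the 4 X-linked genes null library 3 was lowest throughout, and the median gap between null libraries 2 and 3 was 0.82 log2 units, against 0.56 over the set. Rpl10, a late-joining protein at the core of the large subunit, had 8.55, 9.00 and 8.18 log2 CPM in the null libraries and 8.84, 8.67 and 8.79 in the wild-type libraries, a difference of −0.19 (SE 0.19). Rpl39, a small protein lining the exit tunnel, had 6.85, 7.19 and 6.41 in the null and 7.24, 6.98 and 7.09 in the wild type, a difference of −0.29 (SE 0.19). In both, the wild-type libraries lay within 0.26 log2 units of each other while the null libraries spanned more than that. Rps4x, of the small subunit, had 8.90, 9.27 and 8.45 in the null and 9.24, 8.90 and 9.07 in the wild type, and Rpl36a, of the large subunit, had 6.58, 7.04 and 6.21 in the null and 7.01, 6.69 and 6.90 in the wild type. The differences were −0.20 (SE 0.20) for Rps4x and −0.25 (SE 0.20) for Rpl36a. For Rps4x and Rpl10 the difference depended on null library 3, and without it their values were 0.02 and 0.01.

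Among the 6 paralogues and retrocopies, null library 3 was lowest in 4 and the median difference was −0.14 log2 units. Rpl10l, the autosomal retrocopy of Rpl10, had 5.24, 5.37 and 5.15 log2 CPM in the null libraries and 5.42, 5.41 and 5.57 in the wild-type libraries. It was the one gene of the 83 with every null library below every wild-type library, a difference of −0.21 (SE 0.11) with an adjusted p of 0.755 in limma. In reads these were 994, 1142 and 916 in the null and 1018, 1241 and 1304 in the wild type. Rpl39l, the autosomal relative of Rpl39, had 5.31, 5.34 and 5.13 in the null and 5.23, 5.45 and 5.65 in the wild type, a difference of −0.18 (SE 0.14), and its groups overlapped. Both were within 0.22 log2 units over the null libraries, where Rpl10 spanned 0.82 and Rpl39 spanned 0.78.

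Rpl3l, a relative of Rpl3 known from striated muscle, was the one gene with every null library above every wild-type library. This held for 5.06% of all tested genes. Rpl3l had 0.85, 1.10 and 0.91 log2 CPM in the null and 0.60, 0.56 and 0.28 in the wild type. It was also the least abundant, with 47, 59 and 48 reads in the null libraries and 36, 43 and 33 in the wild-type libraries, and its difference of 0.47 (SE 0.24) had an adjusted p of 0.755 in limma. Rpl7l1, which acts in ribosome assembly, had 6.93, 6.85 and 6.85 in the null and 6.68, 6.79 and 6.93 in the wild type, a difference of 0.08 (SE 0.10). Rpl22l1, the relative of Rpl22, followed the set with 5.57, 5.85 and 5.36 in the null and 5.91, 5.67 and 5.80 in the wild type, a difference of −0.20 (SE 0.14). Rps27l, the relative of Rps27 and a p53 target, had 5.89, 5.94 and 5.75 in the null and 5.90, 5.89 and 6.07 in the wild type, a difference of −0.09 (SE 0.11).

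Among the core genes, 3 others departed from the pattern and are named after their values were seen. Rpl29, a basic protein of the large subunit, had 7.57, 8.46 and 7.81 log2 CPM in the null libraries and 8.40, 7.71 and 7.92 in the wild-type libraries. Null library 2 and wild-type library 1 were high in it and the other 4 libraries low, so its spread within each genotype exceeded 0.69 log2 units while the means differed by −0.06 (SE 0.25). Its pseudogene row Rpl29-ps2 carried the same profile, at 6.05, 6.93 and 6.27 in the null and 6.84, 6.02 and 6.32 in the wild type. Rpl8, which sits near the peptidyl transferase centre, had 8.80, 8.85 and 8.69 in the null and 8.91, 8.78 and 8.81 in the wild type, and Rps2, of the small subunit's mRNA entry site, had 8.60, 8.68 and 8.52 in the null and 8.65, 8.57 and 8.73 in the wild type. Each differed by −0.05 (SE 0.09), and the null libraries of each ranged over 0.16 log2 units; with quantile normalization the difference of Rps2 was 0.00.

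**Figure D3:**
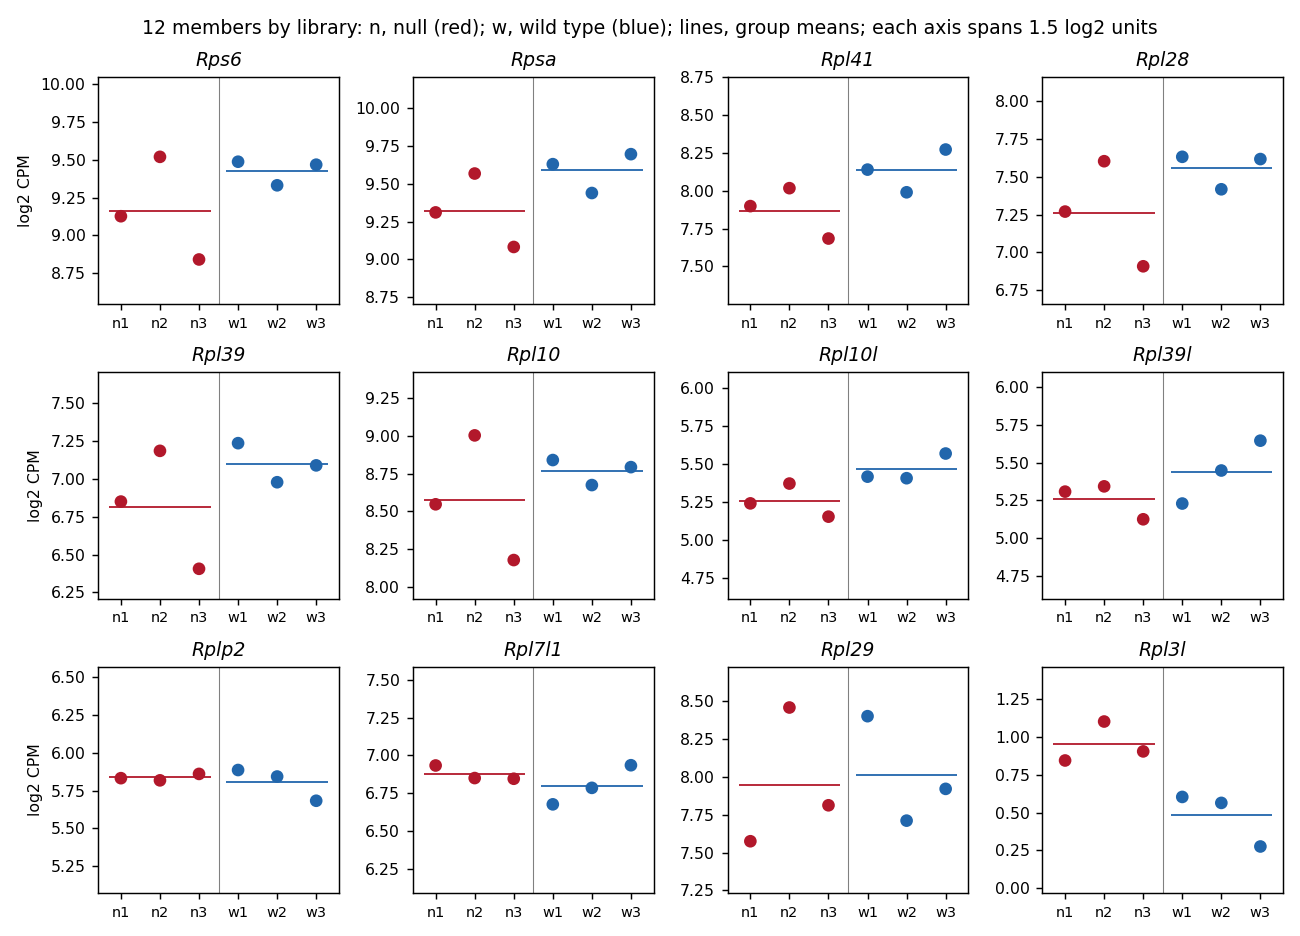
log2 CPM of 12 ribosomal protein genes in each library (n, null, red, left; w, wild type, blue, right; lines are group means); each vertical axis spans 1.5 log2 units, from a different start. In Rps6, Rpsa, Rpl28, Rpl39 and Rpl10 null library 3 is lowest and null library 1 lies below every wild-type library. Rplp2 and Rpl7l1 are flat over the null libraries, and Rpl29 is split by library within both genotypes. Rpl10l (lower) and Rpl3l (higher) have groups that do not overlap, as have 6.02% and 5.06% of all tested genes.

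Ribosomal protein genes have many processed pseudogenes, copies without introns that share most of the parent's sequence, and 141 rows of the table bear such symbols. Together they held 2.12%, 2.67% and 1.70% of the reads in the null libraries and 2.57%, 2.27% and 2.50% in the wild-type libraries, about as much as the genes themselves. For 51 of the 83 genes the table lists such rows, and for 33 of those 51 the rows together held more reads than the gene. Rps12-ps3 held 442% to 477% as many reads as Rps12 over the 6 libraries, Rpl3-ps1 161% to 176% as many as Rpl3, and Rpl10-ps3 176% to 180% as many as Rpl10. Of the 102 rows with at least 1000 reads over the 6 libraries, 89 kept their percentage of the parent within a factor of 1.2 over the libraries.

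The sources used here do not say how the counting shared reads among near-identical copies. The reads of a gene and of its copies therefore cannot be told apart. The values of at least those 51 genes are uncertain to that degree. The order of the libraries was computed with and without them. When each gene was summed with its pseudogene rows, the median difference was −0.18 log2 units, with 80 genes lower in the null and null library 3 lowest in 79. Over the 32 genes with no row of such a symbol the median was also −0.18, with 31 lower in the null and null library 3 lowest in 31. Null library 2 was highest in 50 of the 83 summed genes and in 14 of the 32, against 47 of the 83 genes taken alone. Copies with other forms of symbol were not searched for, so these 32 genes are not known to be free of shared reads.

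**Figure D4:**
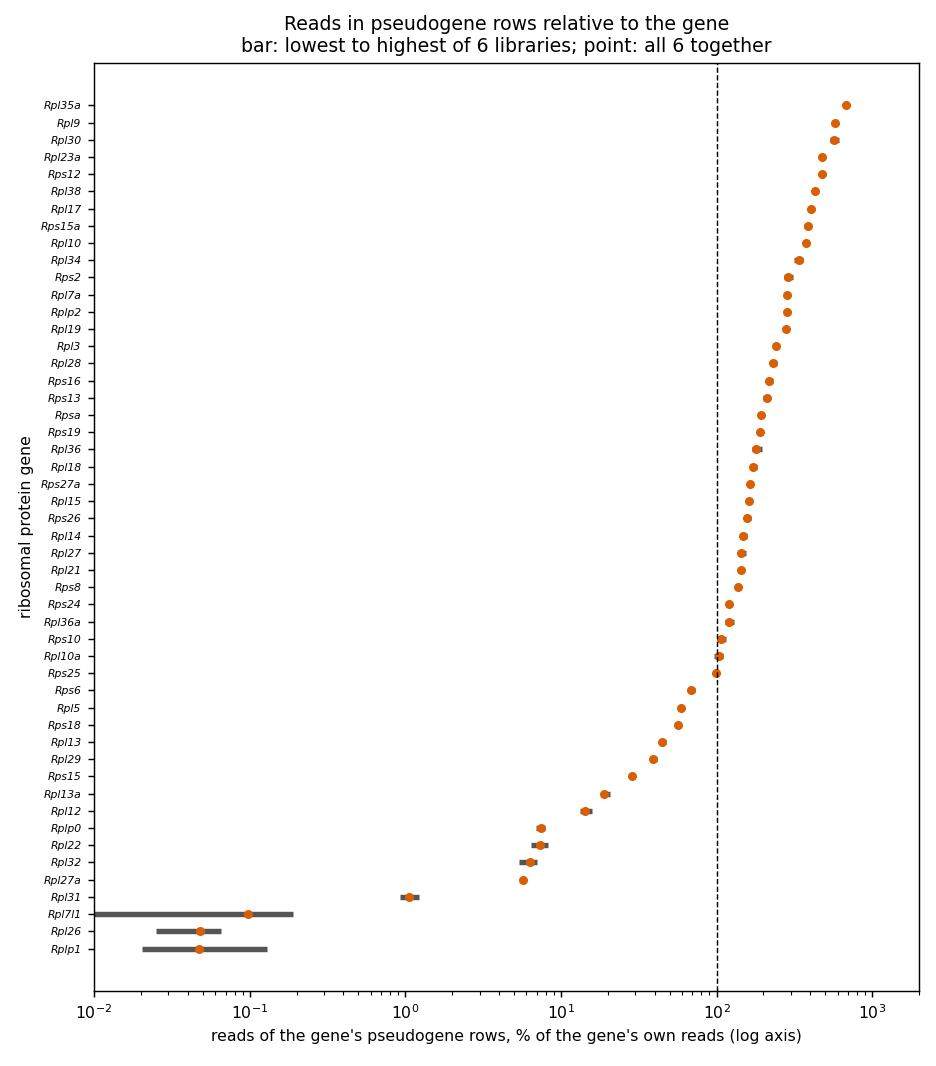
Reads of each gene's pseudogene rows as a percentage of the gene's own reads (horizontal log axis) for 50 of the 51 genes with such rows; points are the 6 libraries together, bars run from the lowest to the highest library, and the dashed line marks 100%. For 33 genes the point lies above 100%, and the bars are short where reads are many; the bar of Rpl7l1 runs off the axis because some libraries had no read in its pseudogene row.

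Other measures moved with null library 3 beside the ribosomal protein genes, and their part in the pattern was not tested. Ribosomal protein genes are compact, with 65 of the 83 spanning at most 5000 bp. The 3417 other tested genes of that span had a median difference of −0.08 log2 units and were lowest in null library 3 in 45.2% of cases. The 4146 tested genes spanning more than 50000 bp had a median difference of 0.07 and were lowest in null library 3 in 26.3%. Reads in the globin genes, which red blood cells fill their cytoplasm with, took 0.125%, 0.118% and 0.0696% in the null libraries and 0.147%, 0.170% and 0.176% in the wild-type libraries. All 5 red blood cell markers tested were lowest in null library 3, with summed levels of 717 to 1255 CPM in the null libraries and 1477 to 1776 CPM in the wild-type libraries.

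Lists for the cells of the testis gave the following values in the same libraries. The 11 germ cell markers tested summed to 1538 to 1648 CPM in the null libraries and 1405 to 1603 CPM in the wild-type libraries, with a median difference of 0.04 log2 units. The 9 Sertoli cell markers had a median difference of 0.19, were highest in null library 3 in 7 and lowest in null library 2 in 6, the reverse of the ribosomal protein genes. Of all 16634 tested genes, 5740 were highest in null library 3 and 2222 were lowest in null library 2. The 9 macrophage and leukocyte markers were all lower on average in the null, with a median of −0.33 and summed levels of 146 to 205 CPM in the null libraries and 167 to 276 CPM in the wild-type libraries. Medians were −0.28 over 6 Leydig cell markers, with sums of 450 to 616 CPM in the null and 472 to 729 in the wild type, −0.31 over 6 endothelial markers, with 155 to 191 CPM in the null and 180 to 230 in the wild type, and −0.04 over 7 peritubular and stromal markers, with 3803 to 5723 CPM in the null and 4693 to 5049 in the wild type. No marker of these lists passed the adjusted threshold in limma, and none of those in the table was at 0 reads in any library.

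Of the ribosomal proteins with other symbols, 4 formed a list of their own, with null library 3 lowest in all 4 and a median difference of −0.18 log2 units. Fau, whose product is a ubiquitin-like fusion to a small subunit protein, had 6.85, 7.30 and 6.50 log2 CPM in the null libraries and 7.24, 7.02 and 7.18 in the wild-type libraries, a difference of −0.26 (SE 0.19). Gnb2l1, which encodes the scaffold RACK1 on the small subunit, had 9.36, 9.57 and 9.15 in the null and 9.55, 9.35 and 9.53 in the wild type, a difference of −0.12 (SE 0.12). Rpl36al, a copy of Rpl36a, differed by −0.24 (SE 0.14). Rps4y2, an autosomal relative of Rps4x from the list of small subunit paralogues, had 6.49, 6.40 and 6.62 in the null and 6.39, 6.49 and 6.38 in the wild type, a difference of 0.08 (SE 0.10). Unlike the 4 others, it was highest in null library 3.

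Genes that build ribosomes were split in direction. Of 35 biogenesis factors tested, 17 were lower and 18 higher in the null, with a median difference of 0.01 log2 units, and none passed the threshold in limma. Nop2, an rRNA methyltransferase, had 6.12, 6.09 and 6.40 log2 CPM in the null libraries and 5.93, 6.11 and 5.88 in the wild-type libraries, a difference of 0.23 (SE 0.12), and null library 3 was its highest library. Nat10, an rRNA acetyltransferase, differed by 0.20 (SE 0.11) and Rrp9, a small nucleolar RNP protein, by 0.34 (SE 0.19). Of 11 genes of RNA polymerase I and its factors, 6 were lower and 5 higher, with a median of −0.00 and none past the threshold. Ubtf, the upstream binding factor of rRNA genes, had 7.86, 7.63 and 8.23 in the null libraries and 7.54, 7.69 and 7.50 in the wild-type libraries, a difference of 0.33 (SE 0.15). Taf1c, of the selectivity factor, had 3.51, 3.51 and 4.78 in the null libraries and 3.39, 3.65 and 3.41 in the wild-type libraries. It differed by 0.45 (SE 0.33), with null library 3 alone high. Polr1c, a subunit shared with RNA polymerase III, differed by −0.15 (SE 0.09).

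Among other mRNAs with a TOP tract, mostly of translation factors, 12 of 16 were lower in the null, with a median difference of −0.13 log2 units and null library 3 lowest in 12, none of them past the threshold. Hnrnpa1, an RNA-binding protein, had 8.73, 8.81 and 8.27 log2 CPM in the null libraries and 8.98, 8.79 and 8.91 in the wild-type libraries, a difference of −0.29 (SE 0.15). Btf3, of the nascent polypeptide complex, differed by −0.18 (SE 0.13), while Pabpc1, the cytoplasmic poly(A)-binding protein, differed by 0.31 (SE 0.19). Among 13 regulators of ribosomal protein synthesis, 10 were higher in the null and 9 were highest in null library 3, with a median of 0.12 and none past the threshold. Of all 16634 tested genes, 8592 were higher in the null and 5740 were highest in null library 3. Mtor, the kinase that promotes TOP translation, had 6.40, 6.28 and 7.53 in the null libraries and 6.19, 6.35 and 6.15 in the wild-type libraries, so null library 3 alone was high. Larp1, the TOP-binding protein, had 6.74, 6.48 and 7.54 in the null and 6.44, 6.62 and 6.32 in the wild type, and Rptor, the mTORC1 scaffold, had 5.06, 4.87 and 6.09 in the null and 4.93, 5.10 and 4.72 in the wild type; both were high in null library 3 as well.

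The DMRT6 ChIP list held 14862 peaks, and its score, the authors' own value on a scale that no header states, runs upward from 50.02 with a median of 94.7. Only 1 ChIP library was made, so no peak could be checked in a replicate. A peak lay with its middle within 1 kb of the 5′ end of 20 of the 83 genes (24.1%), against 12.9% of all genes in the table. Most ribosomal protein genes are highly expressed, 73 of them among the 20% of tested genes with the highest means, from 6.41 log2 CPM up. Of those 73, 24.7% had a peak within 1 kb, against 24.9% of the 3254 other genes in that range. Within 10 kb the count was 35 (42.2%), against 27.9% of all genes; in the highly expressed range it was 42.5% of ribosomal protein genes and 38.3% of the others. By subunit the counts were 12 of 51 large subunit genes and 8 of 32 small subunit genes. None of the 141 pseudogene rows had a peak within 1 kb of its 5′ end.

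All 20 peaks were within 500 bp of the 5′ end, and 11 covered it. The median distance was 61.5 bp, against 122 bp for the other highly expressed genes with a peak within 1 kb, and 12 of the 20 (60.0%) were within 100 bp, against 44.0% of those genes. Their scores were modest, from 50.86 to 170 with a median of 75.2, against 88.6 for those other genes. A score of at least 100 within 1 kb was found at 5 of the 83 genes (6.02%), against 5.24% of all genes; in the highly expressed range the shares were 5.48% of ribosomal protein genes and 9.65% of the others. The highest belonged to Rpl18, a large subunit protein, at chr7:52970647-52970810 in mm9 with a score of 170 and a middle 99 bp upstream of the 5′ end. Rpl11, the large subunit protein known for holding MDM2 in check, had a score of 147 with its middle 468 bp into the gene, at chr4:135608716-135609034. Rps7 had a score of 140 at chr12:29320744-29321006 and Rps20 a score of 132 at chr4:3762750-3763002, both of the small subunit and centred 57 and 64 bp upstream. Rpl36 had a score of 125 at chr17:56752667-56752894, centred 38 bp upstream.

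Of the genes described above, Rps6 had a peak with a score of 83.1 centred 228 bp into the gene, Rplp0 one of 79.8 centred 52 bp upstream, Rpl29 one of 71.0 centred 31 bp downstream and Rps29 one of 53.4 centred 157 bp upstream. Rpl36a was the one X-linked gene with a peak, with a score of 94.2 centred 214 bp upstream. For Rps4x the nearest peak was centred 1.02 kb into the gene, just past the limit. The paralogues Rpl7l1 and Rps27l had peaks with scores of 67.0 and 50.9, while for Rpl10, Rpl10l, Rpl39 and Rpl39l no peak lay within 10 kb. In 4 cases the peak was also within 1 kb of another gene's 5′ end, among them Lias beside Rpl9, Trappc4 beside Rps25 and Snora21 beside Rpl23.

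Expression is given for genes with and without a peak, with no test of the difference. The median difference, null minus wild type, was −0.16 log2 units over the 20 genes with a peak within 1 kb, of which 19 were lower in the null, and −0.18 over the 63 without one, of which 61 were lower. In the libraries, Rpl18 had 7.48, 7.79 and 7.39 log2 CPM in the null and 7.66, 7.58 and 7.78 in the wild type, a difference of −0.12 (SE 0.12). Rps7 had 7.74, 8.16 and 7.54 in the null and 8.15, 7.87 and 8.09 in the wild type, a difference of −0.22 (SE 0.16). Rpl11 and Rps20 each differed by −0.21 (SE 0.17 and 0.14), and Rpl36 by −0.13 (SE 0.17), which was 0.03 without null library 3. No gene with a peak passed the adjusted threshold in limma.

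**Figure D5:**
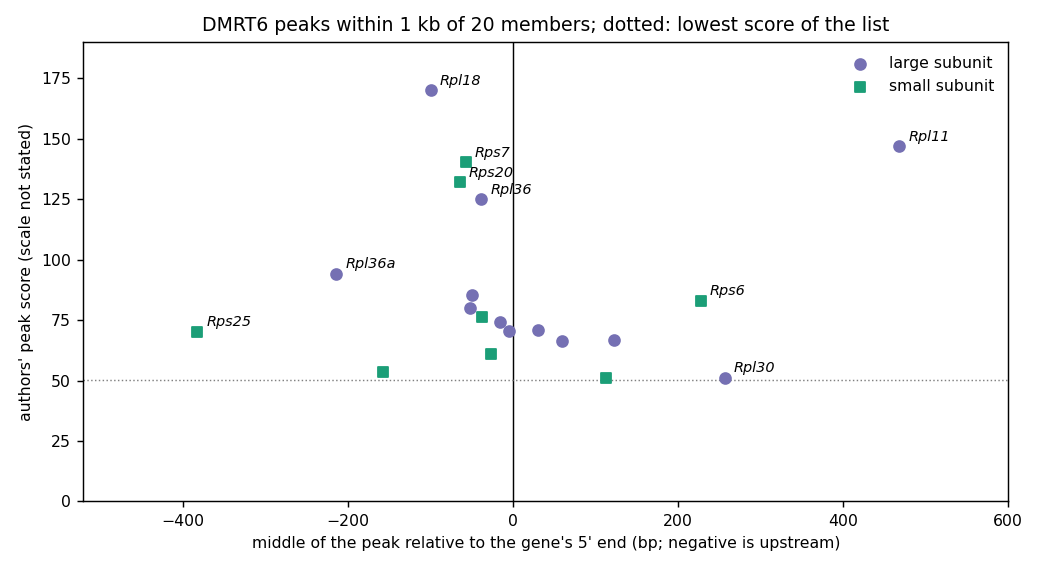
Authors' peak score (vertical axis from 0) against the distance in bp from the gene's 5′ end to the middle of the peak (horizontal axis, negative is upstream) for the 20 ribosomal protein genes with a peak within 1 kb; circles are large subunit and squares small subunit genes, and the dotted line is the lowest score in the list. Points crowd within 100 bp of the 5′ end at scores under 100, with Rpl18, Rps7, Rps20 and Rpl36 above them and Rpl11 468 bp downstream.

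Promoter sequences were read from RefSeq in build GRCm38.p6 for 62 of the 83 genes, as 74 windows of 250 bases before to 50 after the transcript start. These positions cannot be placed on the mm9 peaks, so the windows describe the promoters and not the bound stretches. From 100 bases before to 30 after the start, 5 are shown: Rpl18 and Rps7 for their peak scores, Rps6 for its place beside Dmrtb1, and Rpl10 with its retrocopy Rpl10l. Capitals mark the longest run of pyrimidines (C or T) that begins with C within 30 bases of the start. They lie at chr7:45717971-45718100 (plus strand), chr12:28635924-28636053 (minus), chr4:86857338-86857467 (minus), chrX:74270716-74270845 (plus) and chr12:66284372-66284501 (minus) in the order given.
Rpl18: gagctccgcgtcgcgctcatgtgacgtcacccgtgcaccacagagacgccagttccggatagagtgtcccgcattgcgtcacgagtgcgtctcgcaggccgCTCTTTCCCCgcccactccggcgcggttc
Rps7: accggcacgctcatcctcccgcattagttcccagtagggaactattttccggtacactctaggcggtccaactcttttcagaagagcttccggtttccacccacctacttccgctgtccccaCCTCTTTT
Rps6: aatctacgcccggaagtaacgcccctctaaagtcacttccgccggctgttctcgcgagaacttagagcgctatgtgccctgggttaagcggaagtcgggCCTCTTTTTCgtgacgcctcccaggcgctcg
Rpl10: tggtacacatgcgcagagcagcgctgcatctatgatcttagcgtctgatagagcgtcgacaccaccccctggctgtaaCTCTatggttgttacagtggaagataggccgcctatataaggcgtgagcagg
Rpl10l: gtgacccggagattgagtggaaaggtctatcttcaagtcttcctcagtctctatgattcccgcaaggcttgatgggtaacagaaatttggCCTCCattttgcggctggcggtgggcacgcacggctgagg

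The runs in capitals were 10 bases long in Rpl18 and in Rps6, against 4 in Rpl10 and 5 in Rpl10l, both of which hold longer pyrimidine runs farther upstream. In Rps7 the run reached the end of the printed stretch, so its length is not given. Over all windows, a C followed by 7 or more pyrimidines began within 30 bases of the start in 42 of the 74 ribosomal protein windows (56.8%), against 19.8% of all 32851 windows. A C followed by 4 or more pyrimidines stood exactly at the RefSeq start in 13 (17.6%), against 2.51% of all windows. A TOP tract is carried by the mRNA, whereas the count within 30 bases can take in runs that lie before the RefSeq start. The marked runs of Rpl10 and Rpl10l began 22 and 10 bases before it. Both frequencies are those of RefSeq starts, which can lie some bases from the start used in testis.

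Motifs were searched by letters on both strands. CCGGAAG or its complement CTTCCGG, the form that factors of the ETS family bind, was in 26 of the 74 windows (35.1%), against 8.86% of all windows and 15.5% of the windows of tested genes. In the printed stretches it stands upstream of the start in Rps6 and Rps7 and in none of the other 3. TATAAA or TTTATA was in 7 windows (9.46%), against 13.6% of all windows and 7.41% of the windows of tested genes. ACANTGT, the palindromic core of the DNA element that DMRT proteins bind, was in none of the 74 windows, against 7.54% of all windows and 4.31% of the windows of tested genes; 16 of the 74 windows belong to genes with a peak within 1 kb. That says only that these letters are not in these windows. The median GC content was 57.8% in the ribosomal protein windows and 52.7% in all windows.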

How the data were processed

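RNA libraries of whole testes, 3 null and 3 wild type, were compared, and 1 DMRT6 ChIP library with its input was used. The authors deposited log2 CPM values for 22744 genes and a MACS peak list with a score per peak. Per the submitters' processing notes, STAR 2.3.0e, Bowtie2, Picard, edgeR and mm9 were used, with no role or order given. Per the file name, the caller was MACS 1.4 on de-duplicated reads. The sources used here do not give the read counter, annotation release, use of strand or treatment of reads that match several places.

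All values of the table came out as whole reads (100%, tolerance 0.001), 23.8 to 29.0 M per library, so counting error on a gene with 500 reads or more, as 82 of the 83 genes had in every library, was small; a count of 0 would allow 3 reads. Genes with a mean log2 CPM of at least 0 (16634) were fitted together by limma 3.58.1 (trend) in R 4.3.3, genotype as the only term, with Benjamini-Hochberg adjustment over all of them and a threshold of 0.05. The p-values measure the spread between these libraries. The fit was tested on simulated data. Voom on the recovered reads served as the count-based alternative. An exact test of 3 against 3 libraries cannot go below 0.1.

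A peak was assigned by the distance from its middle to the 5′ end of the gene in the table, within 1 kb. Levels were not compared between genes, since no transcript lengths were at hand; for the same reason no genes were named by level. Genes are named if they were among the 6 of smallest p in a direction (only 3 were higher), a paralogue, X-linked, in the P stalk, among the 5 highest peak scores or in the region around Dmrtb1, and from other lists the 3 of smallest p. The members, lists and rules were chosen with earlier results of these data known. Array weights were fitted with limma's gene-by-gene method. Mitochondrially encoded genes are not in the table used here, so only globin genes were left out as another denominator. Some genes that these rules would name are not reported here. Figures were drawn with matplotlib 3.10.9.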

Additional observations from a re-analysis of the deposited data

How the results depend on the processing

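No ribosomal protein gene passed the adjusted threshold in limma under any setting tried, at an unadjusted p under 0.05 for 0 of them except with array weights (4, where 8.22% of all tested genes did), without null library 2 (57, where 15.3% did) and without wild-type library 2 (1, where 486 of 16634 did). Their median difference stayed negative, from −0.23 with library medians set equal to −0.13 with array weights, and from −0.33 to −0.04 log2 units on leaving out 1 library. Gene counts past the threshold over the whole table were 1 as reported and with voom (554 at unadjusted p under 0.05), 3 with no filter or with median centring, 2 with quantile normalization or with ribosomal protein genes left out of the totals, 8 with array weights, 0 with a mean of at least 2 log2 CPM (420 unadjusted), and 0 to 5 on leaving out 1 library (0 without null library 1, 678 unadjusted). The labels name no pairing of the replicate numbers. Deviations of same-numbered libraries correlated at −0.085, −0.217 and −0.039, and those of differently numbered libraries at −0.141 to 0.229. These values cannot decide on pairing, since deviations from a mean of 3 libraries depend on each other. A replicate block gave 2 genes over the whole table, no ribosomal protein gene and the same median of −0.18. The median of the biogenesis factors was −0.0399 with median centring. Rplp2 turned to −0.0143 with median centring and to −0.0118 with quantile normalization, and Rps2 to 0.00 (0.0022) with quantile normalization. On leaving out 1 library, ranges crossed 0 for Rpl10 (−0.41 to 0.0059), Rpl29 (−0.32 to 0.13), Rpl36 (−0.31 to 0.0257), Rplp2 (−0.0278 to 0.0738) and Rps4x (−0.39 to 0.0162). Dmrtb1 passed the threshold under 6 of the 9 other settings and without null library 3. The share of reads differed by −0.0539 points without null library 3 and −0.499 without null library 2. Peaks counted near 35 genes within 10 kb (42.2%, against 27.9% of all genes and 38.3% of other highly expressed genes) and near 5 at a score of at least 100 (6.02%, against 5.24% and 9.65%). The settings that sum genes with their pseudogene rows, or keep genes without such rows, were chosen after seeing the data. The cause of these changes was not tested.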
